A study of Rattus norvegicus with 4 samples.

Results

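The 9 genes described here are receptors (*Notch1*, *Notch2* and *Notch3*), ligands (*Jag1* and *Dll1*) and transcriptional targets (*Hes1*, *Hey1*, *Hey2* and *Heyl*) of the Notch pathway in cells of the rat anterior pituitary. They were chosen by symbol from the gene table, as 9 of 29509 symbols, and each was found. *Notch2* stood on 2 rows, of which 1 held no counts, so 10 of the 30058 rows belonged to the 9 genes.

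Notch signalling passes between touching cells. A ligand on the surface of a cell binds a Notch receptor on its neighbour, the receptor is cut by proteases, and its released inner part enters the nucleus, where it joins the DNA-binding protein RBPJ and switches on genes such as the HES and HEY repressors. In the pituitary the pathway is known for its part in keeping progenitor cells and in the choice of hormone cell lineage, and folliculostellate cells, the non-hormonal support cells of the gland, share markers with those progenitors.

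Cells came from Sprague Dawley rats of postnatal day 44 (females in diestrus) and postnatal day 59 (males). Each sex was 1 pool of 4 pituitaries, loaded on 2 lanes of a droplet chip for 3′ single-cell RNA sequencing, so lanes were technical replicates and p-values between the sexes measured only the spread between lanes. Sex, pool and age cannot be told apart in this design. The females were represented by lanes of 1868 and 1861 cells and the males by lanes of 2047 and 2085 cells, with 18955509 to 24048021 unique molecular identifiers (UMIs, each a counted mRNA molecule) in a lane. Transcripts of *Eif2s3y*, a Y-linked gene, numbered 0 and 1 in the female lanes and 2038 and 2100 in the male lanes. Those of *Ddx3y*, also Y-linked, numbered 10 and 8 in the female and 11 and 14 in the male lanes, too close to tell the sexes apart. After filtering, 6848 of 7861 cells were assigned by marker genes to 9 types. These were 2315 folliculostellate cells (FSC), 791 corticotrophs (C), 239 gonadotrophs (G), 87 thyrotrophs (T), 1889 somatotrophs (S), 486 lactotrophs (L), 132 endothelial cells (EC), 548 leukocytes (Le) and 361 erythrocytes (E). None of the 9 Notch genes was among the marker genes that named a type. They were not left out of the variable genes by which doublets were found and 220 cells took the type of their neighbours. In FSC the progenitor and support cell markers *Sox2* and *Sox9*, also not among the naming markers, stood at 204 and 188 UMIs per 1000000 (CPM), against 6.07 and 3.14 CPM in somatotrophs. Lanes shared 60 barcode sequences, and the tissue labelled anterior pituitary also held 60 melanotrophs and 59 posterior pituitary cells, 6.67% and 6.78% of them from females.

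Promoter sequence is shown for 3 targets, chosen with their results known. *Hes1* and *Heyl* were both lower in male FSC but ran in opposite directions between groups of FSC. *Hey2* was not called between the sexes. The letters run from 200 to 51 bases before the start site as RefSeq places it in the GRCr8 assembly, 150 bases each, and capitals mark the hexamer TGGGAA on either strand, the core of the sequence that RBPJ is known to bind. The window of *Hes1* is chr11:84213096-84213245 on the minus strand, that of *Hey2* is chr1:28640900-28641049 on the plus strand and that of *Heyl* is chr5:140793071-140793220 on the plus strand.
Hes1: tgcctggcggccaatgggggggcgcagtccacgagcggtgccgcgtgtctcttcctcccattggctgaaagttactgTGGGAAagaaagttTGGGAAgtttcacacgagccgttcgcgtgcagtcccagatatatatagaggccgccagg
Hey2: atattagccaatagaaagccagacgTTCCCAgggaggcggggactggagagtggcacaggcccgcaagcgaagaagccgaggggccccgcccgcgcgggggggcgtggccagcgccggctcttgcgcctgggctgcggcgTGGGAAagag
Heyl: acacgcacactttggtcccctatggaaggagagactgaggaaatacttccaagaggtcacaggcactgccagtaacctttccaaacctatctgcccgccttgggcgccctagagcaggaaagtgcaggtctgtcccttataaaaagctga
The hexamer occurred 2 times in the *Hes1* window, at -123 and -109, on the strand shown. It occurred 2 times in the *Hey2* window, at -175 on the opposite strand and at -60, and was not among the letters of the *Heyl* window. Of the 9 genes 8 matched the promoter table, and of all 33469 promoter windows, of 300 bases each, 25.7% held the hexamer at least once, so its presence describes these windows and no more.

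Of the 4 targets, *Hey1*, *Hey2* and *Heyl* marked FSC among the 9 types, whereas *Hes1* was shared by FSC and EC. *Hes1*, a repressor of lineage genes, was at 697 CPM in FSC, 502 CPM in EC and 38.3 CPM in Le, and at 3.97 to 7.82 CPM in the 5 hormone cell types. By lane, *Hes1* in FSC was at 864 and 815 CPM in females and 599 and 561 CPM in males, and in EC at 603 and 377 CPM in females and 549 and 432 CPM in males, so the FSC lanes were above the EC lanes within each sex and overlapped them over both sexes. *Hey2* was at 225 CPM in FSC, with lanes from 208 to 237 CPM, and no other of the 9 types passed 4.97 CPM. *Heyl* was at 133 CPM in FSC and *Hey1* at 73.4 CPM in FSC. The next types were G for *Heyl*, at 7.46 CPM, and C and EC for *Hey1*, at 5.28 and 5.22 CPM, all below every FSC lane.

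The 3 receptors differed in where they were highest. *Notch1* was at 165 CPM in EC, 45.6 CPM in FSC and 18.6 CPM in Le, and at most 1.07 CPM in a hormone cell type. Its EC lanes ran from 119 to 232 CPM and its FSC lanes from 40.9 to 49.9 CPM, without overlap. *Notch2* was at 87.1 CPM in FSC, 18.1 CPM in Le and 1.43 to 7.46 CPM in every other type of the 9 except E, where no UMI was counted. *Notch3* was sparse in the 9 types, at 19.1 CPM in EC and 10.6 CPM in FSC from 22 and 201 UMIs, and at most 0.71 CPM elsewhere. Its order between EC and FSC differed by sex. Females had 12.9 CPM in FSC and no UMI in EC. Males had 8.76 CPM in FSC and 46.2 CPM in EC, the latter from 5 cells.

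Of the ligands, *Jag1* was at 22.4 CPM in FSC and 18.3 CPM in EC, with lanes of 17.9 to 28.6 CPM in FSC and 14.2 to 30.9 CPM in EC that overlapped. It was at 4.86 CPM in Le and at 0.45 to 3.01 CPM in the hormone cell types. *Dll1* was near the limit of detection everywhere, with 68 UMIs in FSC (3.59 CPM), 7 in EC (6.08 CPM), 3 in T (3.08 CPM) and 8 in C (0.86 CPM). Its order among types therefore rests on single-digit counts outside FSC. Levels of different genes are not compared here, because 3′ counts depend on how well each transcript's end is annotated and captured.

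**Figure D1:**
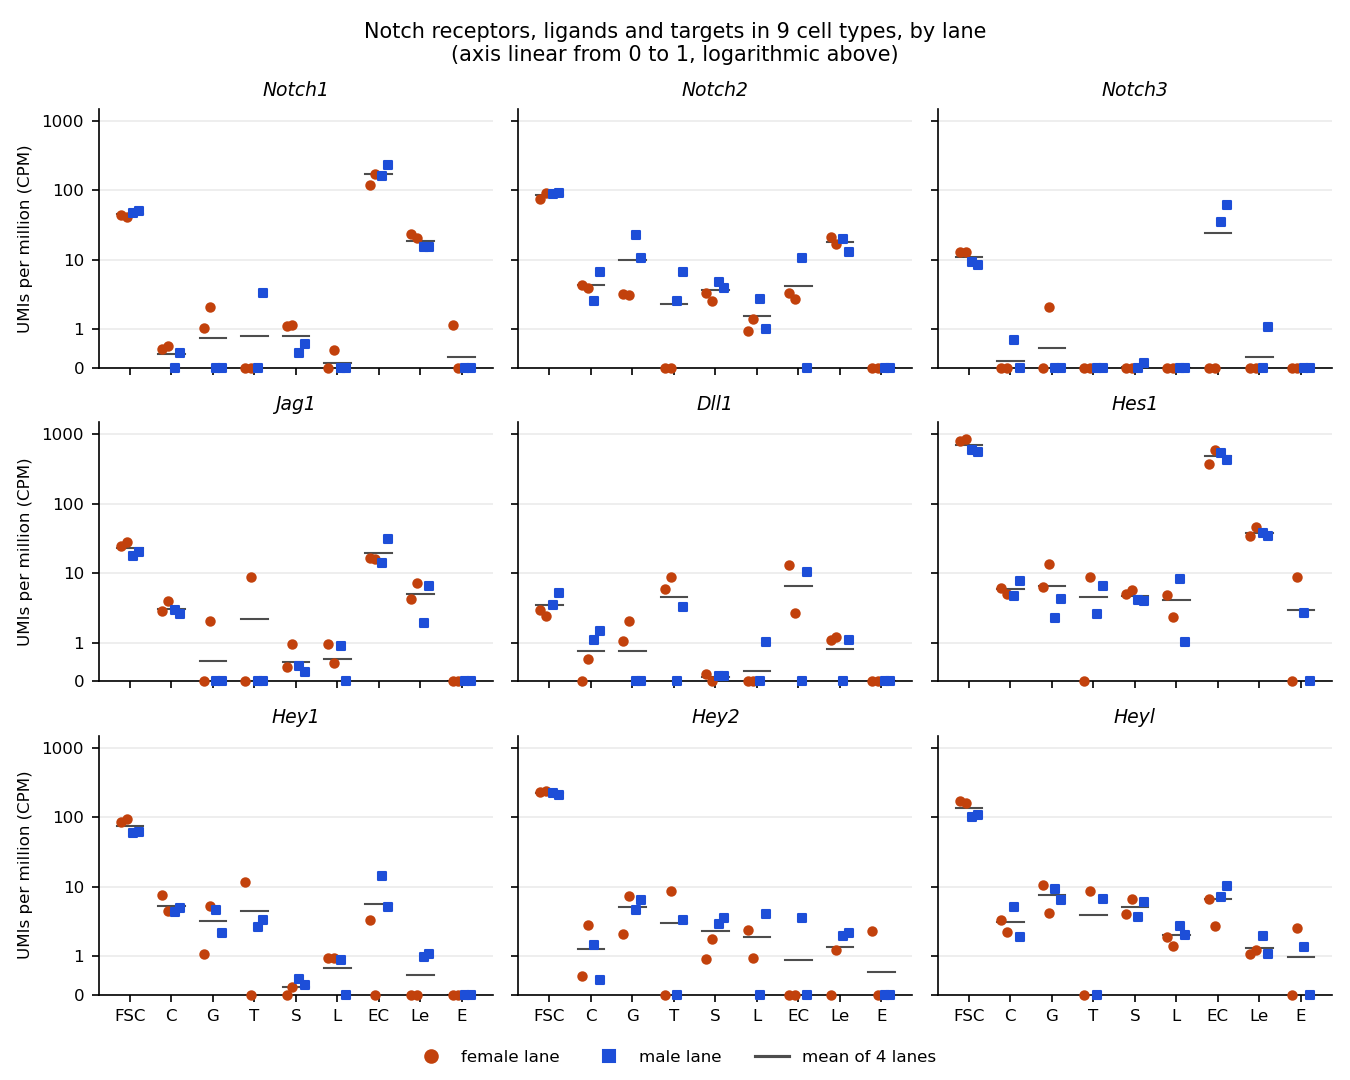
Level of each of the 9 genes (UMIs per 1000000, axis linear from 0 to 1 and logarithmic above) in 9 cell types, with a circle for each female lane, a square for each male lane and a bar for the mean of the 4 lanes. The 4 FSC lanes of *Hey1*, *Hey2* and *Heyl* sit above every lane of the other types, *Notch1* is highest in EC, and *Notch3* in EC appears only in the 2 male lanes.

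To test these differences, the UMIs of each type were added up within a sex. FSC were set against each other type except E in 1 edgeR quasi-likelihood fit with sex as a term. E were left out because globin fills most of their UMIs. A gene was called at a Benjamini-Hochberg adjusted p below 0.001. With 1 pool per sex, the spread in this fit was what type and sex left unexplained, and not a spread between replicate pools. Of 63 comparisons of the 9 genes, 45 were higher in FSC, 1 was lower and 17 were not called, where 9.91% of all gene comparisons were higher in FSC and 8.47% lower. Higher in FSC were 7 genes against C (12.8% of all genes tested), 7 against G (7.92%), 6 against T (4.77%), 9 against S (15.6%), 7 against L (10.0%), 4 against EC (5.86%) and 5 against Le (12.4%). The median log2 fold change of the 9 genes was 5.19 against C, 4.43 against G, 5.30 against T, 5.31 against S and 5.93 against L, and 3.48 against Le, but 0.57 against EC. With *Notch3*, absent from the counts of L and T, set at the bound that a count of 0 allows, the medians were 5.54 against L and 4.81 against T. Over all genes tested these medians lay between 0.06 and 0.24.

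*Notch2*, *Hey1*, *Hey2* and *Heyl* were higher in FSC in all 7 comparisons. The log2 fold change of *Hey2* ran from 5.36 against G to 8.04 ± 0.61 (SE, adjusted p = 8.8e-08, edgeR) against EC, a 259-fold difference of summed CPM that rests on 1 UMI in EC (95% counting interval 46.4- to 10221-fold). That of *Notch2* ran from 1.56 ± 0.33 against Le (adjusted p = 0.00097, edgeR) to 5.29 against L. Its call against Le was lost with DESeq2 and without the male lane of 2085 cells (adjusted p up to 0.0027). *Hes1* was higher in FSC in 6 of 7, by 152-fold in summed CPM against S and 18.2-fold against Le, and did not pass the limit against EC (log2 0.57 ± 0.22, adjusted p = 0.057, edgeR). *Notch1* was higher in FSC than in the 5 hormone cell types and lower than in EC (log2 -1.80 ± 0.30, adjusted p = 0.00023, edgeR), where 7.47% of all genes were lower. *Notch1* did not pass the limit against Le (log2 0.58 ± 0.32, adjusted p = 0.15, edgeR). Its calls against EC and T were lost with DESeq2 and with cells thinned to 2000 UMIs.

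*Jag1* was higher in FSC than in C, G, S and L, with values of 0.40 ± 0.42 against EC (adjusted p = 0.51, edgeR) and 1.51 ± 0.43 against Le (adjusted p = 0.0078, edgeR). G and L held 2 and 4 *Jag1* UMIs. The calls of *Jag1* against these types were lost with cells thinned to 2000 UMIs (adjusted p up to 0.0034, edgeR). *Notch3* and *Dll1* passed the limit only against S, at 7.19 ± 1.28 and 4.18 ± 0.84, where S held 1 and 3 UMIs. The ratios of summed CPM were 281 (95% counting interval 49.8 to 11135) for *Notch3* and 31.6 (10.4 to 157) for *Dll1*. The first call was lost with DESeq2 (adjusted p = 0.12) and the second without the female lane of 1868 cells or the male lane of 2085 cells (adjusted p up to 0.0043, edgeR). No *Notch3* UMI was counted in L or T, so its level in FSC was at least 22.3-fold that of L and at least 3.45-fold that of T, taking 3 UMIs over the group as the most that a count of 0 allows. These limits cover counting error only. With E kept in the fit, *Hes1* alone of the 9 passed the limit against E, where 1.61% of genes did. For genes with counts in E, fitted folds in that fit were far below the ratios of summed CPM. They were 6.36 against 244 for *Hes1*, 9.20 against 354 for *Hey2*, 3.69 against 144 for *Notch1* and 3.62 against 139 for *Heyl*. A gene that missed the limit there was therefore not shown to be near its level in E. As a background for free mRNA in droplets, 2.49% of E held a *Hes1* UMI and at most 0.83% held a UMI of any other of the 9 genes.

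**Figure D2:**
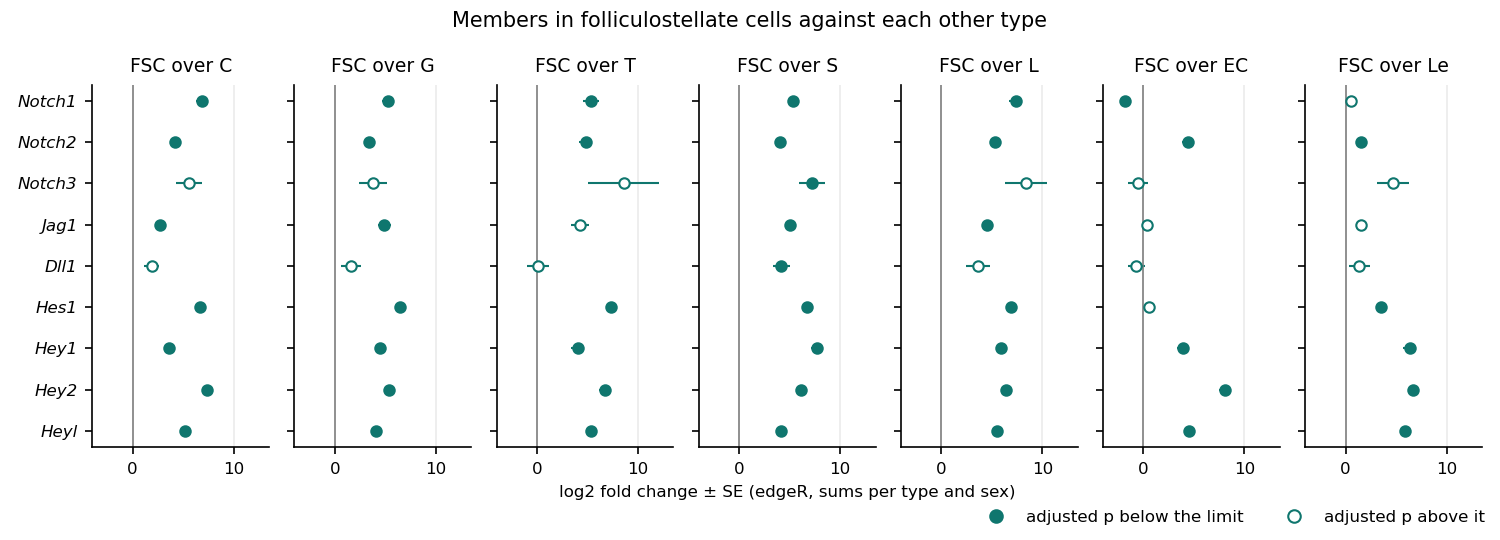
Log2 fold change ± SE of each gene in FSC over each of 7 other types (edgeR, sums per type and sex), filled where the adjusted p is below 0.001 and open where it is not. Against the 5 hormone cell types, points other than *Dll1* lie far to the right of 0. *Dll1* runs from 0.07 ± 1.09 against T to 4.18 ± 0.84 against S. Against EC, the points of *Notch1*, *Notch3*, *Jag1*, *Dll1* and *Hes1* lie near or left of 0.

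When the 8 types were ordered by level for each gene, 8 of 63 neighbouring pairs differed. Over all genes tested, each in its own order, 3.11% of neighbouring pairs did. FSC stood apart from the next type for *Notch2*, *Hey1*, *Hey2* and *Heyl*, and EC from FSC for *Notch1*. For *Hes1*, FSC and EC did not differ beyond their spread, but EC exceeded Le (log2 2.92 ± 0.25) and Le exceeded G (log2 2.97 ± 0.33). Le also exceeded T for *Notch1* (log2 4.74 ± 0.89). No pair of neighbours differed for *Notch3*, *Jag1* or *Dll1*.

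Shares of cells give the same genes on another scale. A cell was counted as expressing a gene at or above a threshold set for that gene by Otsu's method, which splits values into a low and a high class. By this count 68.3% of FSC expressed *Hes1* (95% Clopper-Pearson interval 66.4 to 70.2%), 66.8% *Hey2*, 46.9% *Heyl*, 42.2% *Notch2*, 36.0% *Hey1*, 24.1% *Notch1*, 13.3% *Jag1*, 6.65% *Notch3* and 2.29% *Dll1*. In EC, 65.9% of cells expressed *Notch1* and 64.4% *Hes1*, and in Le 11.3% expressed *Notch1* and 11.1% *Notch2*. By the size criteria of the study, which ask for expression in at least 20% of cells with either 3 times the mean of every other type or a share of cells 30 percentage points higher, *Notch2*, *Hey1*, *Hey2* and *Heyl* were dominant in FSC and *Notch1* in EC. *Hey1*, *Hey2* and *Heyl* were also specific, under the criterion of 5%. At most 3.16%, 2.30% and 3.35% of cells expressed them in any other of the 9 types. Pericytes, which lie outside the 9 types and were named by a rule on collagen and matrix genes, held *Heyl* at 296 CPM. With totals that leave out the hormone genes, *Hey1* was no longer specific, at 5.94% of C. Counting any cell with at least 1 UMI left no gene specific, because 6.07% of C then held *Hey1*, 5.44% of G *Hey2* and 7.53% of G *Heyl*.

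Depth differed between the types. The median was 6900 UMIs in FSC, 7336 in EC, 8246 in E and 13659 in S. With each cell thinned to 2000 UMIs, 55.4% of FSC and 52.3% of EC held a *Hes1* UMI, compared with 81.6% of FSC before thinning. The thinned shares were 32.7% of FSC and 0.76% of EC for *Hey2*, 21.6% of FSC and 0 of 132 EC for *Heyl*, and 7.99% of FSC and 22.7% of EC for *Notch1*. By these shares FSC remained above EC for *Hey2* and *Heyl*, and below it for *Notch1*, at matched depth. In sums of the thinned cells *Notch1* did not pass the limit against EC. The largest thinned share in E was 1.11%, for *Hes1*.

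Most FSC carried transcripts of several targets. At full depth 3.46% of FSC held no UMI of the 4 targets, 16.7% of 1, 31.1% of 2, 33.7% of 3 and 15.1% of all 4. Of the 3 receptors, 41.1% of FSC held none, 40.7% held 1, 370 cells held 2 and 2.16% held all 3. A ligand UMI was found in 387 FSC, of which 65.6% also held a receptor UMI, as did 57.5% of FSC without one. After thinning, correlations between pairs of the 9 genes across 2315 FSC lay between -0.02 and 0.05. These cells share libraries and depth, and counts this sparse cannot show whether the genes are related.

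Cells that the study left out of its 9 types also carried these genes. Unlike the 9 types, pericytes, melanotrophs and posterior pituitary cells were not filtered here for mitochondrial share, depth or doublets. Their levels are therefore set beside those of filtered cells. The 51 pericytes were named by the study's rule on *Col1a1*, *Col1a3*, *Dcn* and *Lum*, which holds none of the mural cell genes listed below. In pericytes *Heyl* was at 296 CPM (66.7% of cells expressing), *Notch3* at 79.5 CPM (23.5%) and *Jag1* at 32.9 CPM (21.6%). *Heyl* was above its level in each of the 9 types in both sexes. For *Notch3* and *Jag1* this held only in females, since both were at 17.7 CPM in male pericytes, compared with 46.2 CPM of *Notch3* in male EC and 19.1 and 21.0 CPM of *Jag1* in male FSC and EC. By lane, *Notch3* in pericytes was at 131 and 281 CPM in females and 22.5 and 10.7 CPM in males, from 29 UMIs in all, and *Heyl* at 403 and 519 CPM in females and 225 and 182 CPM in males. In both genes the female lanes of pericytes were the higher, with 8 to 18 cells in a lane and no test. In 60 melanotrophs, *Hey1* was at 27.6 CPM from 20 UMIs and no UMI of *Notch1* or *Notch3* was counted. In 59 posterior pituitary cells *Hes1* was at 292 CPM, *Notch2* at 73.7 CPM and *Notch1* at 55.6 CPM. In the 35 FSC with a proliferation signature *Hes1* was at 304 CPM, compared with 707 CPM in the other FSC, and *Jag1* at 6.16 CPM from 3 UMIs, compared with 22.8 CPM.

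FSC themselves were not uniform. Clustering them without the Notch pathway genes gave a subgroup of 1570 cells led by *Apoe* and *Gpha2*, a subgroup of 695 cells led by the epithelial genes *Epcam*, *Cd24* and *Krt18*, a subgroup of 33 cells led by the cell division genes *Stmn1* and *Cks2*, and a subgroup of 17 cells led by *Tppp3* and *Dynlrb2*. Clusters of the same cells allow no test, so the values are a description. *Hes1* was at 1026 CPM in the *Epcam*-led and 538 CPM in the *Apoe*-led subgroup, *Notch1* at 64.0 and 34.9 CPM, and *Heyl* in the opposite order, at 60.2 and 178 CPM. *Hey1* was at 73.5 and 75.1 CPM, *Hey2* at 253 and 213 CPM, *Notch2* at 95.0 and 84.4 CPM, and *Jag1* at 17.6 and 26.1 CPM. The 2 genes that parted the subgroups most, *Hes1* and *Heyl*, did so within every lane. *Hes1* was at 1246, 1293, 871 and 772 CPM in the *Epcam*-led and 656, 605, 456 and 471 CPM in the *Apoe*-led cells of the lanes of 1868, 1861, 2047 and 2085 cells. *Heyl* was at 88.5, 97.7, 30.7 and 34.7 CPM in the *Epcam*-led and 208, 218, 143 and 154 CPM in the *Apoe*-led cells of these lanes. Immediate early genes differed as well, *Fos* standing at 12331 CPM in the *Epcam*-led and 8542 CPM in the *Apoe*-led subgroup. Their part in the difference of *Hes1* was not tested.

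**Figure D3:**
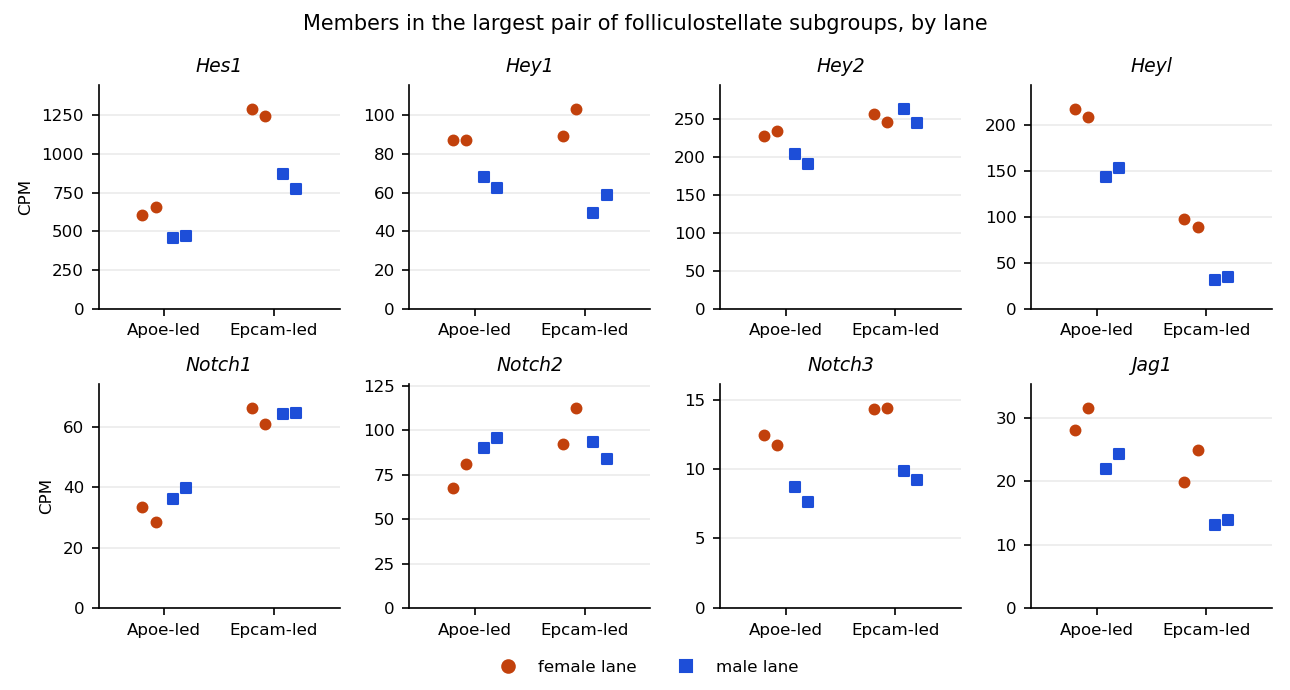
Level (CPM) of 8 genes in the *Apoe*-led (1570 cells) and *Epcam*-led (695 cells) subgroups of FSC, with a circle for each female lane and a square for each male lane. *Hes1* and *Notch1* are higher in the *Epcam*-led cells of each lane, *Heyl* is lower, *Hey2* is higher by a smaller margin (246 to 264 CPM against 191 to 234 CPM), and *Notch2* overlaps between the subgroups.

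Male FSC held less *Hes1*, *Hey1* and *Heyl* mRNA than female FSC, while no difference of *Notch1* or *Notch2* passed the limit. *Hes1* was at 864 and 815 CPM in the female lanes and 599 and 561 CPM in the male lanes. *Hey1* was at 93.5 and 85.5 CPM in females and 59.6 and 60.9 CPM in males. *Heyl* was at 161 and 173 CPM in females and 99.4 and 109 CPM in males. For these 3 targets every female lane was above every male lane, as it was for 6 of the 9 genes and 21.9% of all genes tested, while for 2 of the 9 and 32.1% of all genes every male lane was the higher. In an edgeR fit of the 4 FSC lanes the log2 fold changes, male over female, were -0.58 ± 0.05 for *Hes1* (SE, adjusted p = 7.2e-07), -0.61 ± 0.08 for *Hey1* (adjusted p = 0.00015) and -0.72 ± 0.07 for *Heyl* (adjusted p = 7.7e-06). So 3 of 9 genes were lower in males, where 1.71% of 12870 genes were lower, and 0 of 9 were higher, where 1.06% were. Leaving out the female lane of 1868 cells ended all 3 calls, and leaving out that of 1861 cells ended those of *Hey1* and *Heyl*. The call of *Hey1* was also lost without either male lane and with DESeq2 (adjusted p up to 0.024 over all its alternatives). Without the filter on low counts none of the 3 passed the limit, with adjusted p of 0.0044, 0.018 and 0.0098 for *Hes1*, *Hey1* and *Heyl* (edgeR).

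The remaining genes gave smaller or less certain differences in FSC. *Hey2* was at 237 and 235 CPM in females and 224 and 208 CPM in males (log2 -0.17 ± 0.06, adjusted p = 0.078, edgeR). *Jag1* was at 28.6 and 24.5 CPM in females and 17.9 and 20.2 CPM in males (log2 -0.52 ± 0.15, adjusted p = 0.036, edgeR). *Notch3* was at 13.0 and 12.8 CPM in females and 9.23 and 8.28 CPM in males (log2 -0.60 ± 0.19, adjusted p = 0.063, edgeR). None of these 3 passed the limit. *Notch1* was at 40.9 and 43.8 CPM in females and 46.5 and 49.9 CPM in males (log2 0.14 ± 0.10), and *Notch2* overlapped, with 93.3 and 74.9 CPM in females and 89.4 and 90.3 CPM in males (log2 0.06 ± 0.09). *Dll1* was at 2.45 and 2.92 CPM in females and 3.46 and 5.20 CPM in males, from 23 and 45 UMIs (log2 0.64 ± 0.39, adjusted p = 0.33, edgeR). By subgroup, each female lane exceeded each male lane for *Hes1* and *Heyl* in both the *Apoe*-led and the *Epcam*-led cells. At a finer clustering (resolution 0.5) the *Apoe*-led cells themselves parted by sex. *Hes1* was then at 873 and 376 CPM in subgroups 87.5% and 83.0% female, and at 439 CPM in one 6.65% female.

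Shares of FSC followed the levels for *Heyl* and *Hey1*, but less for *Hes1*. *Heyl* was expressed in 57.4% and 54.4% of FSC in the female lanes and 37.9% and 38.1% in the male lanes, and *Hey1* in 40.2% and 40.3% against 32.2% and 31.3%. *Hes1* was expressed in 71.9% and 68.3% against 67.4% and 65.7%.

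The wider list of Notch genes held 2 further differences in FSC. *Hes5*, another HES repressor, was at 85.2 and 77.4 CPM in the female lanes and 10.4 and 4.82 CPM in the male lanes (log2 -3.45 ± 0.18, adjusted p = 9.2e-09, edgeR). *Nrarp*, a feedback inhibitor of the pathway, was at 222 and 266 CPM in females and 141 and 144 CPM in males (log2 -0.82 ± 0.08, adjusted p = 4.5e-06, edgeR). These were 2 of 41 listed genes tested, with none higher in males, where 1.71% of all genes tested in FSC were lower and 1.06% higher. Both calls were lost without the filter on low counts and without the female lane of 1868 cells, and that of *Nrarp* also without the female lane of 1861 cells (adjusted p up to 0.0024 for *Hes5* and 0.014 for *Nrarp*, edgeR). Of 6 progenitor and FSC markers 2 were lower in males, among them *Aldh1a2* (log2 -0.39 ± 0.06), and 0 were higher, beside 1.71% and 1.06% of all genes. *Sox2*, *Sox9* and *Aqp4* stood at 0.04 ± 0.06, 0.01 ± 0.10 and 0.06 ± 0.12, and *Cdh26* at 0.40 ± 0.11 (adjusted p = 0.023, edgeR). In FSC, genes that rise when tissue is dissociated moved in the same direction. Of 8 such genes, 6 were lower in male FSC, where 1.71% of all genes were. Among them were *Fos* (log2 -0.58 ± 0.03), *Jun* (log2 -0.56 ± 0.04) and *Ier2* (log2 -0.56 ± 0.03). *Egr1* missed the limit at -0.25 ± 0.04 and *Cebpb* stood at 0.59 ± 0.29. The 8 genes summed to 28842 and 30979 CPM in the female lanes and 21332 to 22312 CPM in the male lanes. Outside FSC, none of them was called lower in males in another type. Called higher in males were 6 in G, 7 in S, 6 in L and 1 in C. Over all genes tested, 132 were higher and 174 lower of 6897 in G, and 575 and 680 of 11904 in S. In L they were 507 and 1006 of 8638, and in C 20 and 42 of 9916. Lower in T, EC and Le were 11 of 3284, 15 of 4539 and 19 of 6688 genes. The part of the 8 genes in the FSC differences of *Hes1*, *Hey1*, *Heyl*, *Hes5* and *Nrarp* was not tested.

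**Figure D4:**
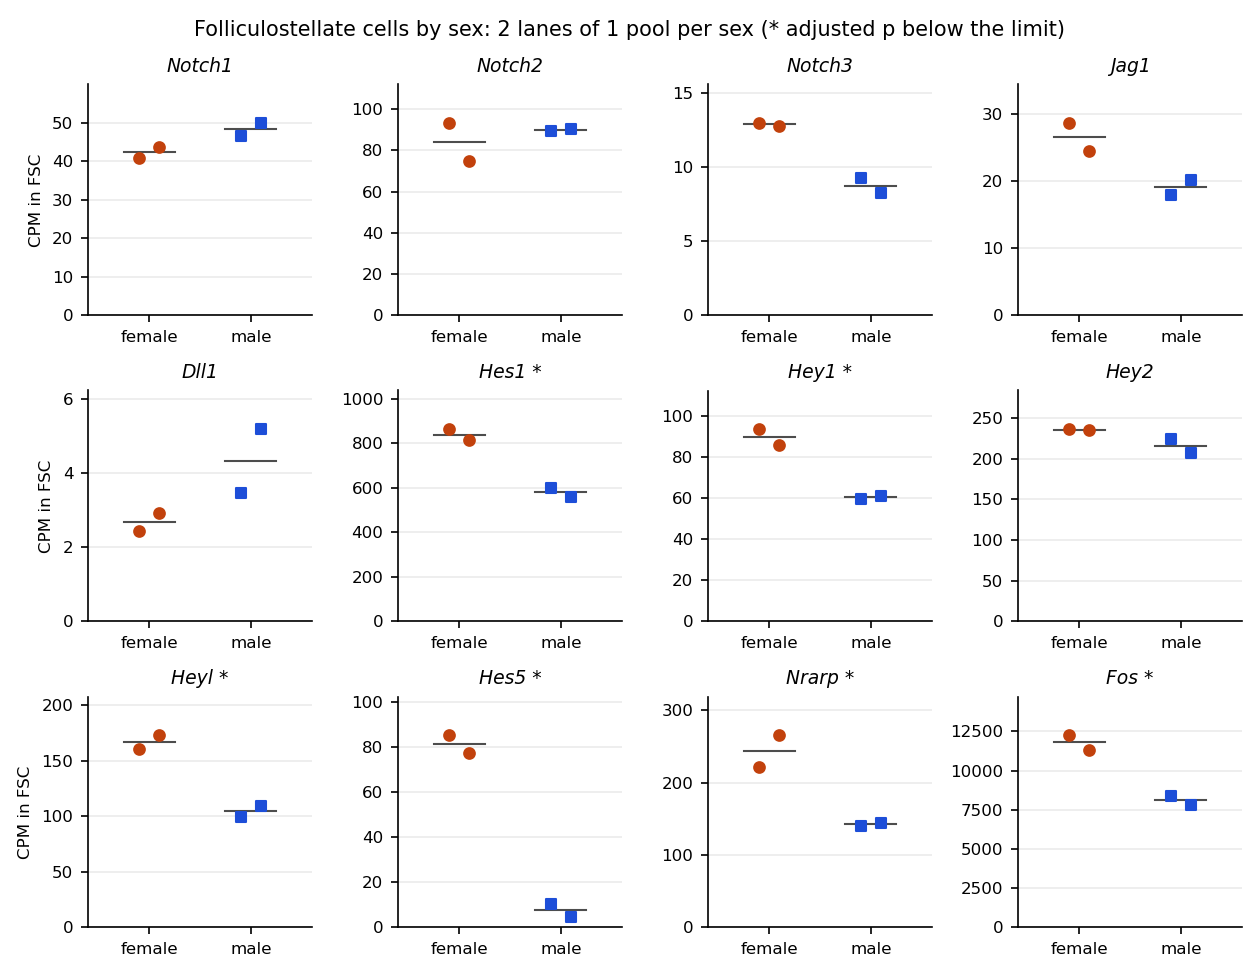
Level (CPM) in FSC of the 9 genes, of *Hes5* and *Nrarp* and of the dissociation gene *Fos*, with a circle for each female lane, a square for each male lane and a bar for the mean of 2 lanes of 1 pool. A star marks an adjusted p below 0.001, and *Hes5* falls from 85.2 and 77.4 CPM in females to 10.4 and 4.82 CPM in males.

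Outside FSC few of the genes had counts enough for a test between the sexes: 3 in C, 4 in S, 3 in EC, 3 in Le and none in G, T or L. Over all 8 types pooled, 3.35% of gene tests were lower in males and 2.20% higher. Apart from *Notch3* in EC, none of these 13 tests passed the limit. The nearest was *Hey2* in S, at 1.21 ± 0.42 (male over female, adjusted p = 0.029, edgeR) from 14 UMIs in females and 51 in males. Of the 6 progenitor and FSC markers 2 could be tested in S, *Sox2* at 1.47 ± 0.26 and *Sox9* at 1.63 ± 0.40. Whether *Hey2* in S shares a source with these markers was not tested. Whether the differences of *Hes1*, *Hey1* and *Heyl* in FSC differed from those in another type was tested by interaction in a fit over 8 types and 4 lanes. Over the 9 genes 1 of 63 such tests passed, *Notch3* in FSC against EC, where 0.236% of genes did against EC and 1.98% against the 7 types pooled. For the 3 targets none of 21 tests passed, with adjusted p from 0.31 to 0.999975 (edgeR). *Hes1* in EC, for example, was at -0.03 ± 0.19 (male over female).

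*Notch3* in EC was counted only in males, at 35.4 and 61.8 CPM in the male lanes, with no UMI in 74 female EC. It passed the limit at log2 6.74 ± 1.15 (adjusted p = 0.00084, edgeR), where 0.441% of genes in EC were higher in males, but a fitted value against a group at 0 is no bound. The gene passed the filter on low counts through the male lanes alone, so the call adds no support beyond the counts themselves. Were UMIs counted independently, the female count would allow at most 3, and the male level would be at least 10.4-fold higher. The UMIs lay together in few cells, so this value is not a firm lower bound. All 22 UMIs lay in 5 of 58 male EC, and 4 of these 5 cells carried at least 3 of 6 mural cell genes (*Pdgfrb*, *Rgs5*, *Cspg4*, *Acta2*, *Kcnj8* and *Abcc9*) beside the endothelial genes. The other 54 male EC held 1 UMI, or 2.31 CPM, and no female EC carried 3 mural genes. The 6 mural genes summed to 61.9 to 66.1 CPM in female and 422 to 741 CPM in male lanes of EC. None of them was at 0 in EC of both sexes together, but the female sums came from *Rgs5*, *Kcnj8* and *Abcc9* alone. In pericytes the 6 mural genes summed to 892 to 1601 CPM in female and 365 to 615 CPM in male lanes. The 5 cells had a median of 11589 UMIs, against 6673 in the other male EC. The call was lost without either female lane (adjusted p up to 0.11), and the gene had too few counts to be tested without a male lane.

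Between lanes of the same sex, 0 of 9 genes differed in females and 0 of 8 in males (edgeR, with type as a block), where 0.370% and 0.134% of all genes did. At an unadjusted p under 0.05 there were 1 in females, *Hes1*, and 0 in males, and DESeq2 called 0 in either.

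Beyond the 9 genes, 50 further genes of the pathway were in the table, of which 43 had counts enough to test. Of their 301 comparisons of FSC with another type, 34 were higher in FSC and 38 lower, against 9.91% and 8.47% of all gene comparisons. DESeq2 with its own scaling gave 29 higher and 51 lower. Higher in at least 4 comparisons were *Hes5* (7), *Dtx4* (6), *Lfng* (5), *Nrarp* (5) and *Notch4* (4). Lower in at least 4 were *Mfng* (6), *Dlk1* (4), *Dner* (4) and *Neurl1* (4).

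The downstream genes of this list were led by *Hes5*, at 40.8 CPM in FSC and at most 0.87 CPM in any other of the 9 types. This level came from few cells, as 7.25% and 9.45% of FSC in the female lanes and 2.34% and 1.82% in the male lanes held a *Hes5* UMI. *Nrarp* was at 189 CPM in FSC and 158 CPM in EC, with 45.3 CPM in Le and at most 6.40 CPM in the hormone cell types. *Hes6*, a HES family member known to favour neuronal and endocrine differentiation, was highest in hormone cells, at 461 CPM in G and 264 CPM in C against 66.5 CPM in FSC, and was lower in FSC than in G, C and L.

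The fringe enzymes, which add sugars to Notch receptors and change how they answer to ligands, split between types. *Lfng* was at 44.5 CPM in FSC, 38.2 CPM in EC and 58.8 CPM in Le and at most 2.80 CPM in hormone cells. *Mfng* was at 0.58 CPM in FSC but 172 CPM in EC, 140 CPM in C, 56.9 CPM in L and 55.8 CPM in Le, and was lower in FSC in all comparisons but that with S (log2 -8.05 ± 0.43 against EC).

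Among the ligands, *Dll4* was at 87.8 CPM in EC and at most 0.54 CPM in the other types, and *Jag2* at 26.1 CPM in EC and 25.6 CPM in G against 2.75 CPM in FSC. *Dlk1*, a ligand-like protein that lacks the domain by which ligands activate the receptor, was at 7169 CPM in S, 2364 CPM in T and 30.9 CPM in FSC. *Notch4*, the endothelial receptor, was at 92.1 CPM in EC and 26.7 CPM in FSC (log2 -1.68 ± 0.33, FSC over EC).

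*Rbpj* was at 38.8 CPM in FSC and 12.4 to 41.3 CPM in the other types except E, and no comparison of it passed the limit (log2 -0.80 to 1.17). By role, 2 of 6 genes of the nuclear complex, 4 of 8 proteases, 4 of 4 ligands and 7 of 11 ubiquitin ligases and endocytic regulators were called in at least 1 of the 7 comparisons, as were 28 of all 43 and 52.3% of all genes tested. The 4 ligands were each lower in FSC than in at least 1 type, as were 32.6% of all genes tested.

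**Figure D5:**
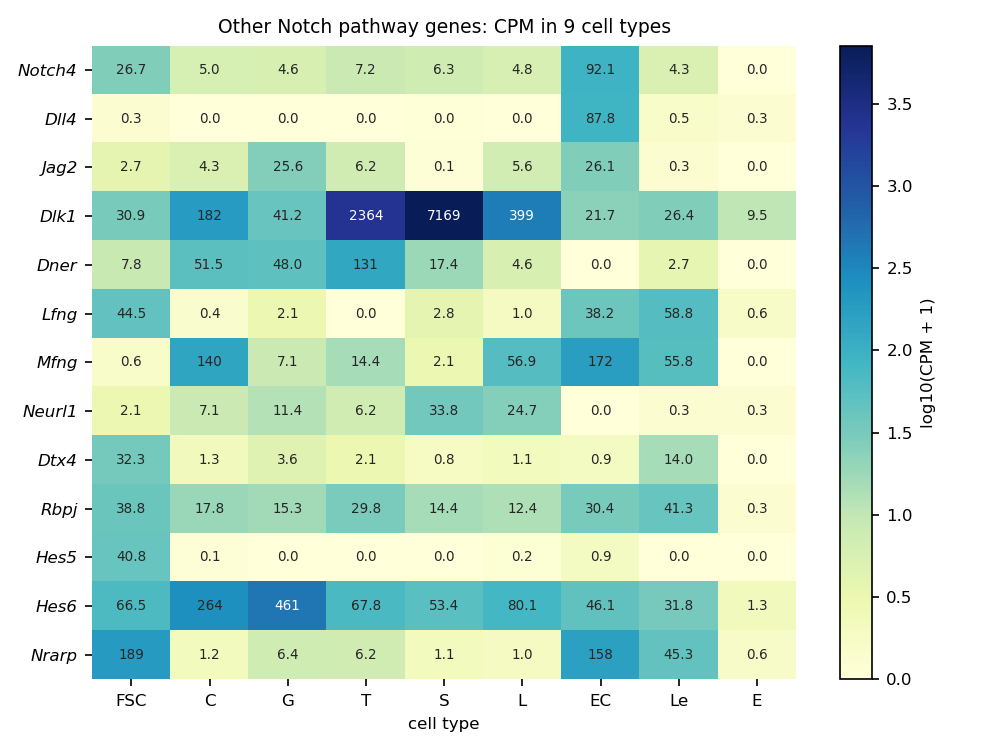
Level (CPM, printed in each cell, shaded by log10(CPM + 1)) of 13 further genes of the pathway in 9 cell types, all lanes summed. *Hes5* and *Dtx4* are highest in FSC, *Dll4* and *Notch4* in EC, *Dlk1* in S and T, and *Hes6* in G and C, while *Rbpj* has counts in every type.

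The pattern of each gene over 18 sums (9 types and 2 sexes) was compared with that of 12123 genes by Pearson correlation of log2(CPM + 5), as a description of sums that share libraries. *Hes1* was most like *Ifitm3* (0.984), *Flna* (0.983) and *Mmp14* (0.982), and *Jag1* like *Rgs3* (0.971), *Ptgfrn* (0.969) and *Hes1* itself (0.967). *Hey2* was most like *Lancl3* (0.991), *Sod3* (0.990) and *Frem2* (0.988), *Heyl* like *Mdk* (0.988), *Slc16a11* (0.985) and *Nkain4* (0.984), and *Hey1* like *Vstm4* (0.962), *Efs* (0.959) and LOC100910558 (0.958). The 3 HEY genes reached 0.926 to 0.974 with each other. Other genes were closer, as their ranks for each other ran from 6 (*Hey2* for *Heyl*) to 188 (*Hey1* for *Hey2*). *Notch1* was most like *Heph* (0.997), *Id3* (0.994) and *Fam71a* (0.993), *Notch2* like LOC100910081 (0.973), *Smpdl3a* (0.946) and *C1r* (0.944), and *Notch3* like *Pdgfd* (0.973), *Cox4i2* (0.925) and *Steap4* (0.908). *Dll1* had too few counts to be compared.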

How the data were processed

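Dispersed anterior pituitary cells of female and male rats were profiled by 10X Genomics 3′ single-cell RNA sequencing. The authors aligned reads with Cell Ranger 2.1 to an NCBI rat annotation extended at the 3′ ends and deposited 1 table of UMI counts for all lanes, with 86742346 UMIs in all and, per cell, medians of 8853 UMIs and 2652 genes. The lanes carried no replicate number and were assigned to a sex by their numbers of cells, as the study gives them.

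Counts of rows sharing a symbol were added (266 symbols). Cells were filtered and named by the rules of the study, rebuilt here: 273 cells were removed for mitochondrial share, 328 for depth, 192 as doublets and 207 as ambiguous, and 220 cells took the type of their neighbours. The names of types are therefore rebuilt ones.

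UMI sums of a type by sex (sex kept in the model) or by lane were tested with edgeR 4.0.16 in R 4.3.3 (glmQLFit, TMM, minimum count of 10, two-sided, Benjamini-Hochberg over all genes tested, limit 0.001), and DESeq2 1.42.0 was an alternative. The scripts were tested on simulated data. CPM is UMIs per 1000000 of a sum. Subgroups came from Leiden clustering at a resolution of 0.2. Intervals and limits cover counting error only.

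All 9 genes were named. Of the wider list of 51 genes, those called in at least 4 comparisons in 1 direction and 9 fixed genes were named, with the 3 genes most like each member. The 9 genes and all lists were chosen with earlier results of these data known. Sequences came from RefSeq (GRCr8). Other normalizations, filters, cell sets, thinning and left-out lanes were tried as alternatives. One marker gene is not reported here.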

Additional observations from a re-analysis of the deposited data

Results flagged for a closer look

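The sex difference of *Notch3* in FSC differed from that in EC. The log2 fold change, male over female, was lower in FSC than in EC by a fitted -9.73 ± 1.72 (edgeR interaction test, adjusted p = 0.00043), where 0.236% of genes tested differed in this way. Female EC held no *Notch3* UMI, so the fitted size is no bound. The 22 UMIs lay in 5 male cells, and the call was lost when any of the 4 lanes was left out (adjusted p from 0.0015 to 0.017).

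Pericytes, which the comparisons of the 9 types do not use, held *Notch3* at 79.5 CPM, *Jag1* at 32.9 CPM and *Heyl* at 296 CPM, above each of the 9 types when all lanes are summed. These levels rest on 29, 12 and 108 UMIs in 51 cells, which were not filtered for mitochondrial share, depth or doublets. In males alone only *Heyl* was above each type, with *Notch3* and *Jag1* at 17.7 CPM each, below male EC (46.2 and 21.0 CPM).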

How the results depend on the processing

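Over the alternatives run, no called comparison of the 9 genes reversed its direction, whereas 2 sex differences in FSC and EC that missed the limit took both signs, *Notch2* in FSC (log2 -0.09 to 0.21) and *Hes1* in EC (-0.32 to 0.33). The count of the 9 genes higher in FSC (45) ranged from 40 with cells thinned to 2000 UMIs to 52 at a limit of 0.05, and from 43 to 45 without 1 lane. The 1 gene lower in FSC, *Notch1* against EC, was lost with DESeq2 and with thinned cells (0 in each), as was the call of *Notch1* against T. For the wider pathway list, 72 comparisons were higher in FSC and 73 lower at a limit of 0.05, 54 and 64 with lanes as libraries, and 14 and 24 with thinned cells, with 22 to 34 higher and 32 to 36 lower without 1 lane. The low value of 22 came without the male lane of 2047 cells. The 3 genes lower in males became 0 without the filter on low counts and 0 to 2 without 1 lane. The 1 higher in males became 2 at a limit of 0.05 and 0 with library size, DESeq2 or totals without hormone genes, and 0 to 0 without 1 lane, and the adjusted p of *Notch3* in DESeq2 was not given. The 1 interaction became 2 at a limit of 0.05 and 0 to 0 without 1 lane. The 3 genes specific to FSC became 2 with totals without hormone genes and 0 when any cell with at least 1 UMI counted. The median share of FSC expressing a member was 36.0% by the Otsu threshold. By at least 1 UMI the median was 38.8% at full depth and 14.5% in thinned cells. The cause of these changes was not tested, except that thinning removes UMIs and a left-out lane removes samples. Library size in place of TMM moved the median of all log2 fold changes by 0.70 against Le, 0.52 against L and S and 0.17 against C. No paired analysis was possible because the lanes carry no replicate number. In C, G, T, S, L and EC, few UMIs of most members limit what the sex tests could detect.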

Other observations

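At a finer clustering (resolution 0.5) FSC fell into 6 subgroups, and those within the *Apoe*-led cells parted by sex. A subgroup led by *Gadd45g*, *Zfp36*, *Junb* and *Fos* held 431 cells, 87.5% of them female, with *Hes1* at 873 CPM and *Nrarp* at 366 CPM. Another led by *Apoe* and *Gpha2* held 442 cells, 83.0% of them female, with *Hes1* at 376 CPM and *Nrarp* at 173 CPM. A further subgroup led by *Cst3* held 692 cells, 6.65% of them female, with *Hes1* at 439 CPM and *Nrarp* at 127 CPM. *Heyl* was at 204, 269 and 116 CPM in these subgroups. The clusters were made from the same cells, so these values carry no test.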
